A study of Homo sapiens with 4 samples.

Results

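EPCAM, CLDN7 and ST14 encode the epithelial cell adhesion molecule, the tight junction protein claudin-7 and the membrane protease matriptase. All probes annotated to these 3 symbols were taken, which gave 1 probe for each gene among 14006 genes with a named probe, and all 3 were measured on all 4 arrays. Total RNA of 4 cultures, from 2 lines of human prostate cancer, was hybridised, each to its own array. The first pair was PC3-L against PC3-H. Both are androgen-independent PC3 cells, from a bone metastasis, that were isolated with IIH6C4, an antibody to the laminin-binding glycan; PC3-L is labelled low for that glycan with high motility and invasion, and PC3-H high for it with low motility and invasion. The second pair was LNCaP-AI against LNCaP. LNCaP, a line that depends on androgen and came from a metastasis in a lymph node, is labelled high for the glycan with low motility and invasion; LNCaP-AI is labelled as LNCaP cells kept in charcoal-stripped serum until androgen-independent, low for the glycan and highly motile and invasive, and its description adds a perineural cell conditioned medium. All cultures were grown in RPMI1640 with serum, and the sources used here do not say whether a culture was 1 clone.

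EPCAM is a membrane glycoprotein that joins epithelial cells to each other. It binds claudin-7 directly in the membrane, which protects claudin-7 from degradation. Matriptase sits in the same membrane, cuts the extracellular part of EPCAM and so frees claudin-7 for breakdown; it also activates the precursor of hepatocyte growth factor. All 3 are typical of polarised epithelia, including that of the prostate.

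Titles and source names, which were followed, give the glycan level of the PC3 cultures the other way round from the sample descriptions. Those descriptions also call LNCaP independent of androgen and moderate for the glycan. The array labelled LNCaP-AI was also closer to PC3-L than to LNCaP at most line markers measured. KLK3, which encodes prostate-specific antigen, was 61.2 on LNCaP-AI versus 1781 on LNCaP, and 63.4 on PC3-L versus 59.0 on PC3-H. The summed intensity of the 4 measured of 8 listed LNCaP markers was 212 on LNCaP-AI versus 3613 on LNCaP, and 187 on PC3-L versus 435 on PC3-H. SPDEF alone gave 306 of that PC3-H sum. The summed intensity of the 7 measured of 9 listed PC3 markers was 3638 on LNCaP-AI versus 306 on LNCaP, and 4135 on PC3-L versus 3487 on PC3-H. LCN2 alone gave 1881 of that PC3-H sum, so unlike genes made up the PC3-H and PC3-L sums. Not every PC3 marker followed its sum. The chemokine CXCL8 was 46.9 on LNCaP-AI versus 22.3 on LNCaP, and 497 on PC3-L versus 302 on PC3-H. LCN2 was 46.0 on LNCaP-AI versus 64.5 on LNCaP, and 46.1 on PC3-L versus 1881 on PC3-H. UCHL1 was 184 on LNCaP-AI versus 54.1 on LNCaP, and 208 on PC3-L versus 57.4 on PC3-H. The lowest value of any probe was 17.6, so no marker could be at 0 and a dim value does not show that a gene was expressed. The members' differences and the list counts of the second pair were therefore also taken with PC3-L in place of LNCaP-AI. For the counts this was chosen after seeing the data. PC3-L is also the low array of the first pair, so the values with PC3-L are not an independent check. The part of the line label in these results was not tested.

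Promoter sequence was at hand for 1 of the 3 members. CLDN7 has 2 annotated transcription starts in the RefSeq promoter table. Each window holds 250 bases before and 50 bases after a start, on the minus strand of GRCh38.p14. They are shown because the E-box CACCTG, which repressors such as ZEB1 and SNAI2 bind, was dense in one of them. Capitals mark each CACCTG or its reverse complement CAGGTG. The first window lies at chr17:7262429-7262728 and the second at chr17:7263164-7263463.
CLDN7 window 1: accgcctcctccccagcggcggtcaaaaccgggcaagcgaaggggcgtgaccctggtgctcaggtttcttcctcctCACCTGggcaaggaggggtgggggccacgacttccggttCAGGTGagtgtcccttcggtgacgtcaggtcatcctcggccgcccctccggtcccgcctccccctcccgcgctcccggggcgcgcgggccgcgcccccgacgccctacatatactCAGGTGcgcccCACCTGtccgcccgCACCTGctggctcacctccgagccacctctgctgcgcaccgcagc
CLDN7 window 2: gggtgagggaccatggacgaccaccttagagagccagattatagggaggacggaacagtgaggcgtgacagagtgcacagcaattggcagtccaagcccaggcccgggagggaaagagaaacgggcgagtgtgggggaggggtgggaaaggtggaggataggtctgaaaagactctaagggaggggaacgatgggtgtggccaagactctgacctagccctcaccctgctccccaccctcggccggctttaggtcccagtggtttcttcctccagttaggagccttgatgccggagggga

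The first window held 5 matches to CACCTG on either strand, between 174 bases before the start and 5 bases after it, and the second held 0. Of 35116 promoter windows of the same length in the table, 20.6% held at least 1 such match and 33 windows, 0.094%, held 5 or more. The GC box GGGCGG, to which SP1 binds, matched at 2 positions of the first window and 0 of the second, on either strand, and 45.0% of all windows held at least 1. None of the 5 E-box matches overlapped a GC box. The grainyhead motif AACCNGTT matched in 0 places of both windows, against 1.73% of all windows with at least 1. A match describes the letters of the window and does not show binding.

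EPCAM had an intensity of 30.1 on PC3-L versus 667 on PC3-H, and 33.3 on LNCaP-AI versus 314 on LNCaP. Both arrays labelled low for the glycan were thus below both arrays labelled high. The share of all genes with this order of arrays was not counted, so for each member the order alone says little. The log2 difference (after adding 1 to each intensity) was −4.43 for PC3-L minus PC3-H, or 21.5-fold lower, and −3.20 for LNCaP-AI minus LNCaP, or 9.18-fold lower. With PC3-L in place of LNCaP-AI the second difference was −3.34 (4.51% of 11113 genes were past 2-fold lower and 7.23% higher in that comparison). On PC3-L 32.2% of all probes were dimmer than EPCAM and on LNCaP-AI 37.7%, against 98.7% on PC3-H and 96.0% on LNCaP. Values that close to the dim end of an array limit the fold that can be seen.

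CLDN7 was 40.3 on PC3-L versus 355 on PC3-H, and 41.6 on LNCaP-AI versus 486 on LNCaP. As with EPCAM, both low arrays lay below both high arrays. The log2 difference was −3.11 in the PC3 pair (8.62-fold lower) and −3.52 in the LNCaP pair (11.4-fold lower), and −3.56 with PC3-L in place of LNCaP-AI. About the middle of its array in both low cultures, CLDN7 was brighter than 50.7% of probes on PC3-L and 51.0% on LNCaP-AI.

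ST14 was 45.6 on PC3-L versus 449 on PC3-H, and 50.9 on LNCaP-AI versus 160 on LNCaP. Both low arrays were again below both high arrays, but the high arrays lay further apart than for CLDN7. The log2 difference was −3.27 in the PC3 pair (9.66-fold lower) and −1.63 in the LNCaP pair (3.10-fold lower), and −1.79 with PC3-L in place of LNCaP-AI. ST14 thus had the smallest difference of the 3 members in the LNCaP pair, where its LNCaP level was lower than its PC3-H level.

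**Figure D1:**
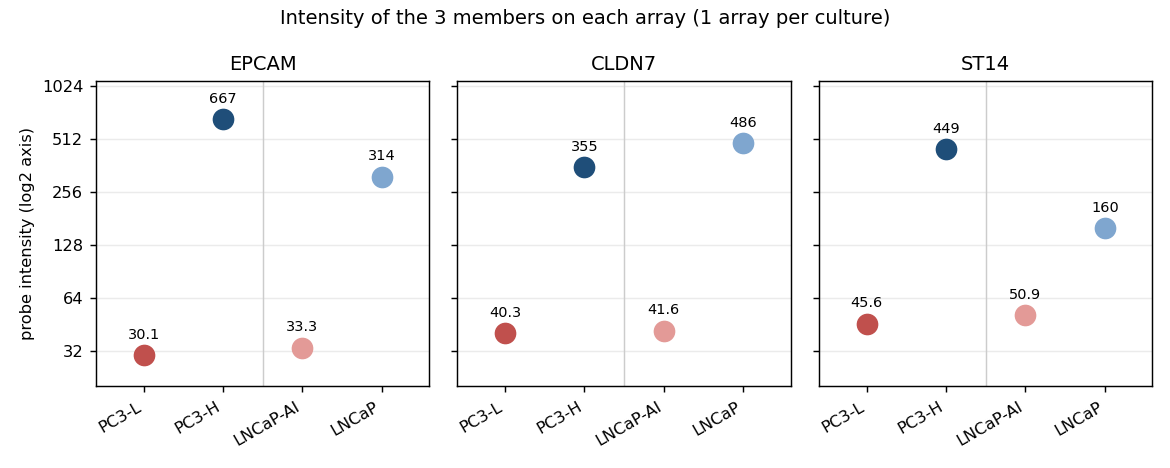
Probe intensity (log2 axis) of EPCAM, CLDN7 and ST14 on each array, 1 point per array and no error bars because each culture had 1 array. For each gene the PC3-L and LNCaP-AI points lie between 30.1 and 50.9, below the PC3-H and LNCaP points, which lie between 160 and 667.

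All 3 members were past 2-fold lower in each pair. Genes were counted where the value on at least 1 of the 2 arrays reached that array's 40th percentile over all probes. Of these, 3.76% were past 2-fold lower in the PC3 pair (419 of 11135) and 5.13% in the LNCaP pair (571 of 11136). From the lowest difference upward, EPCAM was number 7, ST14 number 17 and CLDN7 number 23 in the PC3 pair. In the LNCaP pair CLDN7 was number 20, EPCAM number 33 and ST14 number 187. Of 10762 genes past the filter in both pairs, 114 (1.06%) were past 2-fold lower in both. Ordered by the smaller of their 2 differences, EPCAM was number 1, CLDN7 number 3 and ST14 number 42 of these genes. EPCAM lay under the 40th percentile on PC3-L and LNCaP-AI and passed the filter only through the arrays where it is high, so its exact position describes these arrays. The positions rest on 1 array per culture and carry no error.

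**Figure D2:**
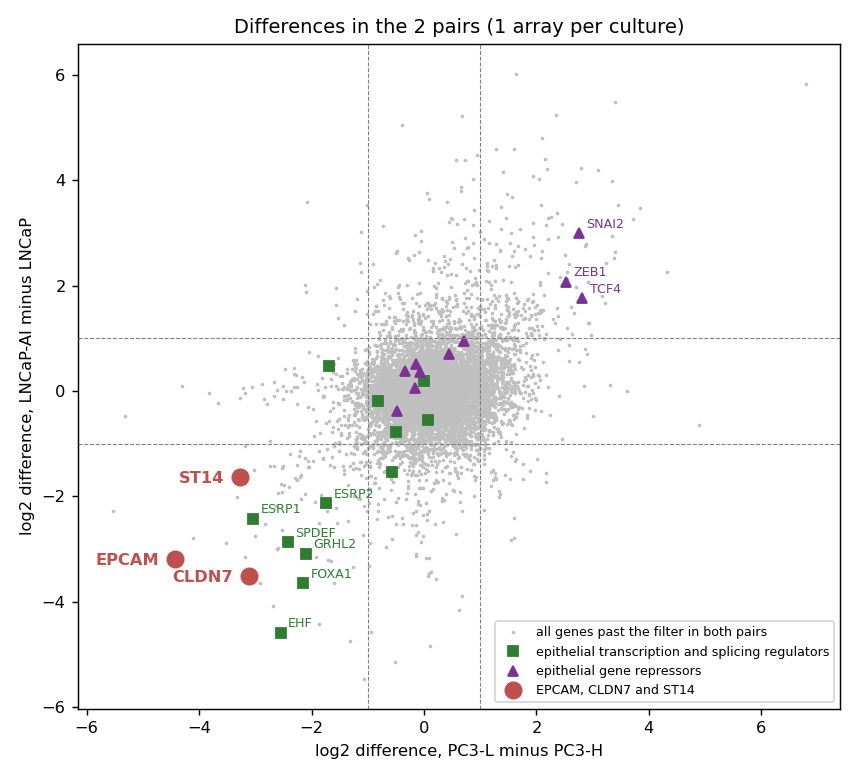
Log2 difference in the LNCaP pair (vertical axis) against that in the PC3 pair (horizontal axis), 1 point per gene past the filter in both pairs, with dashed lines at 2-fold. EPCAM, CLDN7 and ST14 lie in the lower left with GRHL2, ESRP1 and EHF, and ZEB1, SNAI2 and TCF4 lie in the upper right.

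The cultures labelled high differed from each other at some members, while the low ones were close. LNCaP was past 2-fold below PC3-H for EPCAM (log2 difference −1.09) and ST14 (−1.48), where 4.49% of 11159 genes were past 2-fold lower. CLDN7 was 1.37-fold higher on LNCaP, with a log2 difference of 0.45. LNCaP-AI minus PC3-L gave 0.14 for EPCAM, 0.05 for CLDN7 and 0.15 for ST14, so 0 of 3 were past 2-fold where 2.78% of 10956 genes were past it either way; EPCAM was under the filter on both of these arrays. The order of levels from high to low was PC3-H, LNCaP, LNCaP-AI and PC3-L for EPCAM and ST14, and LNCaP, PC3-H, LNCaP-AI and PC3-L for CLDN7. With 1 array per culture, no spread was at hand to say which neighbours in these orders differ.

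A limma fit over all 4 arrays set low against high glycan label. It had a term for the line, which left 1 residual degree of freedom. The estimate was −3.81 ± 0.38 (log2, SE) for EPCAM, −3.31 ± 0.26 for CLDN7 and −2.45 ± 0.46 for ST14. With Benjamini-Hochberg adjustment over 11509 genes the two-sided limma adjusted p was 0.19 for EPCAM, 0.19 for CLDN7 and 0.28 for ST14. None of the 3 passed 0.05, nor did any other gene (0.0% of genes tested), while 1014 genes had an unadjusted p under that value. Without the line as a covariate and without the PC3-H array, the estimate was −3.27 for EPCAM, −3.54 for CLDN7 and −1.71 for ST14. Without the LNCaP array it was −4.36, −3.08 and −3.19 for these genes. In both of those fits the residual spread came from PC3-L and LNCaP-AI alone. Without LNCaP-AI, the array that was closer to PC3-L than to LNCaP at most line markers, the estimates were −3.88, −3.33 and −2.53. That fit again had no line term.

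The genes next to the members along their chromosomes differed less at their median than the members did. The 10 nearest genes past the filter, 5 on each side in the order of the GRCh38.p14 gene table, had a median log2 difference of 0.70 around EPCAM in the PC3 pair and 0.44 within the LNCaP pair, with lowest values of −0.20 and −0.05. Around CLDN7 the medians were 0.07 and 0.08, with lowest values of −0.47 and −0.22. Around ST14 they were 0.10 and −0.09, with lowest values of −2.26 and −1.41. In the PC3 pair 3 of 10 around EPCAM and 2 of 10 around ST14 were past 2-fold higher, where 8.58% of all genes were. In the LNCaP pair 1 of 10 around CLDN7 was, where 5.45% of all genes were. Past 2-fold lower was 1 of 10 around ST14 in each pair, where 3.76% and 5.13% of all genes were.

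Partners known to join EPCAM in the membrane, such as tetraspanins and CD44, were past 2-fold lower in few cases. Of the 6 partners with a named probe besides EPCAM and CLDN7, 5 passed the filter in the PC3 pair and 0 were past 2-fold, where 12.3% of all genes were past it either way. In the LNCaP pair 4 passed, with 1 lower and 1 higher, where 10.6% of all genes were past it either way; with PC3-L in place of LNCaP-AI 0 were lower and CD44 and CLDN1 higher. The tetraspanin CD9 was 51.4 on LNCaP-AI versus 117 on LNCaP (log2 difference −1.17; −0.98 with a pseudocount of 16), but 67.4 on PC3-L versus 70.6 on PC3-H; with PC3-L in place of LNCaP-AI its difference from LNCaP was −0.79. The hyaluronan receptor CD44, also a PC3 marker, was 297 on LNCaP-AI versus 23.9 on LNCaP (3.58), and 318 on PC3-L versus 239 on PC3-H (0.41). The partner AGR2 was lower in both pairs but under 2-fold, with log2 differences of −0.97 in the PC3 pair and −0.83 within the LNCaP pair. CD82 had −0.17 and 0.24. The tetraspanin TSPAN8 was near 23 on all arrays and did not pass the filter.

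The proteases that cut EPCAM on both sides of the membrane differed less than their substrate. ADAM17, the sheddase that cuts EPCAM outside the cell, was 456 on PC3-L versus 142 on PC3-H (log2 difference 1.68) and 221 on LNCaP-AI versus 113 on LNCaP (0.96). ADAM10, a related sheddase, was 406 on PC3-L versus 192 on PC3-H (1.08; 0.96 after quantile normalization) and 374 on LNCaP-AI versus 486 on LNCaP (−0.38). The 5 measured γ-secretase subunits, PSEN2, NCSTN, APH1A, APH1B and PSENEN, which cut the remaining stump inside the membrane, lay between −0.77 and 0.76 in the PC3 pair and between −0.39 and 0.42 in the LNCaP pair. BACE2, a further membrane protease, was 76.5 on PC3-L versus 208 on PC3-H (−1.43), and 95.9 on LNCaP-AI versus 39.8 on LNCaP (1.25; 0.93 with PC3-L in place of LNCaP-AI). FHL2 and LEF1 act with the released intracellular end in the nucleus. FHL2 was 87.1 on LNCaP-AI versus 37.5 on LNCaP (1.20, or 0.95 with a pseudocount of 16), but had −0.25 in the PC3 pair. LEF1 was 72.1 on PC3-L versus 25.9 on PC3-H (1.45), and had 0.61 within the LNCaP pair. In all, 1 of 11 genes of this list was past 2-fold lower and 3 higher in the PC3 pair, where 3.76% of all genes were lower and 8.58% higher. In the LNCaP pair 0 were lower and 2 higher, where 5.13% of all genes were lower and 5.45% higher. With PC3-L in place of LNCaP-AI 0 were lower and 2, ADAM17 and FHL2, higher.

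Of genes reported as targets of the EPCAM intracellular end, few were past 2-fold, close to the shares over all genes (12.3% in the PC3 pair and 10.6% within the LNCaP pair, either way). Of 6 measured, 1 was past 2-fold higher in the PC3 pair, the cyclin CCNA2, at 493 on PC3-L versus 209 on PC3-H (1.23). In the LNCaP pair 1 was lower, MYC, at 142 on LNCaP-AI versus 445 on LNCaP (−1.64; −0.93 with PC3-L in place of LNCaP-AI, where 0 of the 6 were past 2-fold). EGFR had a log2 difference of −0.95 in the PC3 pair, and −1.07 after quantile normalization. The list median was −0.54 in the PC3 pair and 0.013 within the LNCaP pair, against −0.020 and 0.0048 over all genes.

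On the matriptase side, few regulators were measured. Its inhibitors SPINT1 and SPINT2 and its partner protease PRSS8 are not analysed here. HGFAC, which like matriptase activates hepatocyte growth factor, was 41.8 on PC3-L versus 61.7 on PC3-H, and 52.6 on LNCaP-AI versus 51.5 on LNCaP. Hepsin (HPN), a type II transmembrane serine protease of the same family as matriptase, had log2 differences of −0.30 and −0.69 in the PC3 and LNCaP pairs. Of 6 matriptase substrates and effectors past the filter besides EPCAM, 1 was past 2-fold lower and 0 higher in the PC3 pair. In the LNCaP pair 1 was lower and 2 higher, as also with PC3-L in place of LNCaP-AI. Over all genes, 3.76% were lower and 8.58% higher in the PC3 pair, and 5.13% and 5.45% in the LNCaP pair. Counts this small say little about these genes.

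MST1R, the receptor of a growth factor related to hepatocyte growth factor, was 36.6 on PC3-L versus 138 on PC3-H (−1.89, or −1.17 as the mean over its probes). In the LNCaP pair it had a log2 difference of 0.02. MET, the hepatocyte growth factor receptor, was 449 on LNCaP-AI versus 34.8 on LNCaP (3.65), and 609 on PC3-L versus 571 on PC3-H. The matriptase substrate CDCP1 was 1461 on LNCaP-AI versus 344 on LNCaP (2.08), and 2009 on PC3-L versus 1186 on PC3-H (0.76). The androgen-induced protease KLK4 was 35.3 on LNCaP-AI versus 325 on LNCaP (−3.16), and near 36 on both PC3 arrays. MET, CDCP1 and KLK4 on LNCaP-AI were thus nearer to both PC3 arrays than to LNCaP. MST1R was not, at 41.2 on LNCaP-AI versus 40.6 on LNCaP. The other genes of this list past the filter, MST1 and KLK5, were under 2-fold in both pairs. What lay behind these levels was not tested.

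Most other claudins were not past 2-fold. Besides CLDN7, 14 claudins passed the filter in each pair, of which 1 was past 2-fold lower in the PC3 pair and 2 within the LNCaP pair, with 0 higher, where 3.76% and 5.13% of all genes were lower; counts this small say little about the claudins. With PC3-L in place of LNCaP-AI, 2 of 15 were lower and 1 higher. CLDN3, a barrier-forming claudin, was 106 on PC3-L versus 323 on PC3-H (−1.60) and 122 on LNCaP-AI versus 334 on LNCaP (−1.45). CLDN12 was 35.7 on LNCaP-AI versus 82.2 on LNCaP (−1.18; −0.92 with a pseudocount of 16 and −0.61 with PC3-L in place of LNCaP-AI), and 53.5 on PC3-L versus 42.4 on PC3-H (0.33). The median of the 14 was −0.19 in the PC3 pair and −0.09 within the LNCaP pair.

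Other tight junction genes were past 2-fold lower in 4 of 11 in the PC3 pair and 5 of 12 within the LNCaP pair, with 0 and 1 higher, where 3.76% and 5.13% of all genes were lower. With PC3-L in place of LNCaP-AI the LNCaP count was 4 lower and 1 higher. Their medians were −0.71 and −0.67. LSR, which marks the corners between neighbouring cells, was 71.4 on PC3-L versus 333 on PC3-H (−2.21) and 64.3 on LNCaP-AI versus 203 on LNCaP (−1.64). The polarity scaffold PATJ was 52.3 on PC3-L versus 136 on PC3-H (−1.36) and 48.1 on LNCaP-AI versus 271 on LNCaP (−2.47). MARVELD2, tricellulin, a protein of the same corners, was 24.8 on LNCaP-AI versus 257 on LNCaP (−3.32), and the tight junction protein OCLN 58.3 against 228 (−1.95; −0.67 with PC3-L in place of LNCaP-AI). In the PC3 pair TJP3 (−1.24) and CRB3 (−1.15) were the others past 2-fold, and a pseudocount of 16 left 2 of the 4. PARD3, a polarity protein, was 160 on LNCaP-AI versus 51.1 on LNCaP (1.63). Its log2 difference in the PC3 pair was −0.71, where OCLN had 0.40 and MARVELD2 −0.98. Among adherens junction genes plakoglobin (JUP) was 54.9 on PC3-L versus 320 on PC3-H (−2.52) and 59.4 on LNCaP-AI versus 375 on LNCaP (−2.64), and it was the only one of 5 past 2-fold in these pairs; with PC3-L in place of LNCaP-AI NECTIN4 (−1.03) was a further one. CDH1 is not analysed here.

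Transcription and splicing regulators of epithelial cells were past 2-fold lower in 7 of 13 in each pair and higher in 0, where 3.76% of all genes were lower in the PC3 pair and 5.13% within the LNCaP pair. Their medians were −1.69 and −1.53, against −0.020 and 0.0048 over all genes. The same 6 were lower in both pairs. GRHL2, a grainyhead factor known to activate junction genes such as claudins, was 29.3 on PC3-L versus 129 on PC3-H (−2.10) and 32.8 on LNCaP-AI versus 287 on LNCaP (−3.09). ESRP1, an epithelial splicing factor, was 25.4 on PC3-L versus 216 on PC3-H (−3.04) and 30.2 on LNCaP-AI versus 167 on LNCaP (−2.42). GRHL2 and ESRP1 were dimmer than EPCAM on PC3-L and LNCaP-AI, so they too passed the filter only through the arrays where they are high. The list was chosen with earlier results of these data known, so its counts are a description. EHF, an ETS factor of epithelia, had log2 differences of −2.55 and −4.59, and the pioneer factor FOXA1 had −2.15 and −3.65. With PC3-L in place of LNCaP-AI, 7 of 13 were lower and 0 higher.

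Repressors of epithelial genes were past 2-fold higher in 3 of 10 in each pair and lower in 0, where 8.58% of all genes were higher in the PC3 pair and 5.45% within the LNCaP pair. The same 3 genes made up both counts, and 3 were higher and 0 lower with PC3-L in place of LNCaP-AI. ZEB1, a zinc finger repressor of epithelial genes, was 225 on PC3-L versus 38.2 on PC3-H (2.53) and 157 on LNCaP-AI versus 36.5 on LNCaP (2.07). SNAI2, a related E-box repressor, was 634 on PC3-L versus 93.5 on PC3-H (2.75) and 468 on LNCaP-AI versus 57.6 on LNCaP (3.00). TCF4, an E-protein, was 435 on PC3-L versus 60.9 on PC3-H (2.82) and 184 on LNCaP-AI versus 53.6 on LNCaP (1.76; 3.00 with PC3-L in place of LNCaP-AI). SNAI1 was 50.8 on PC3-L versus 71.6 on PC3-H and 47.0 on LNCaP-AI versus 61.0 on LNCaP, so it did not share the direction of SNAI2.

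**Figure D3:**
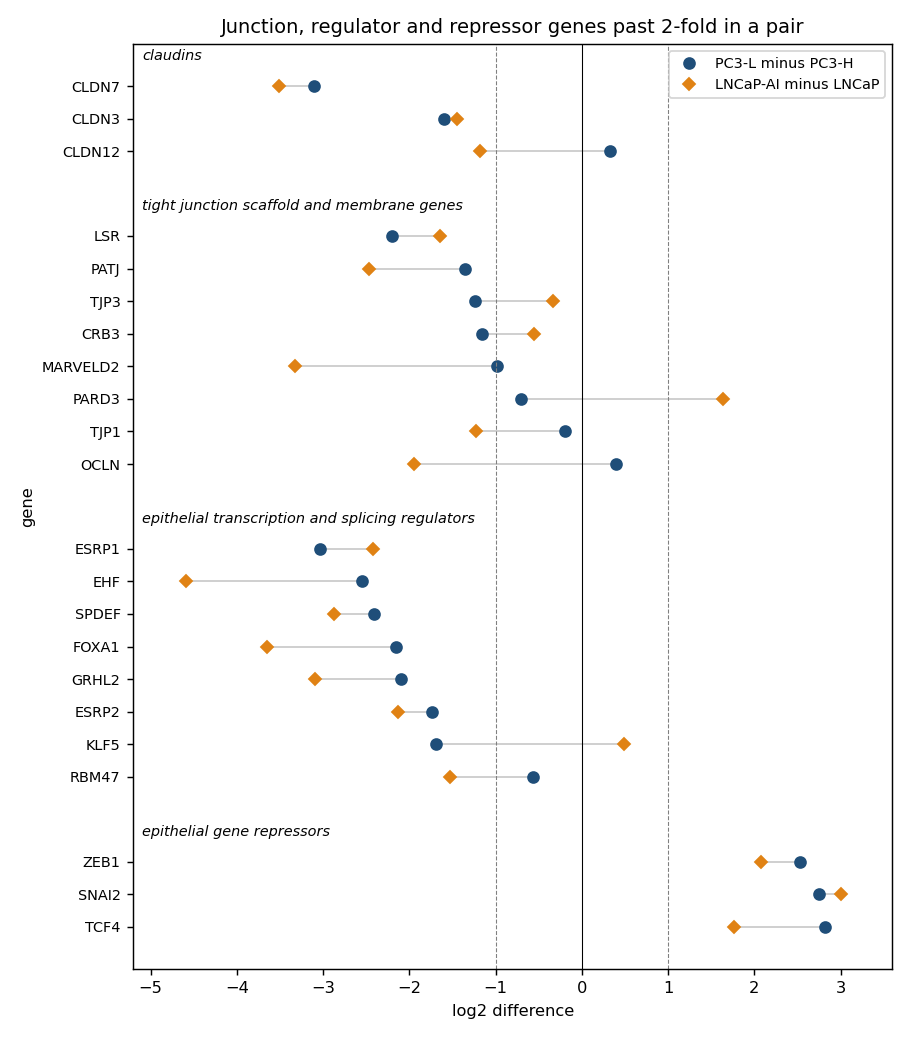
Log2 differences (horizontal axis) of claudins, tight junction genes, epithelial regulators and epithelial gene repressors that were past 2-fold in a pair, 1 row per gene, with circles for PC3-L minus PC3-H and diamonds for LNCaP-AI minus LNCaP. ESRP1, EHF, SPDEF, FOXA1, GRHL2 and ESRP2 lie left of −1 in both pairs, and ZEB1, SNAI2 and TCF4 right of 1.

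Of other epithelial surface and keratin genes 7 of 16 were past 2-fold lower in the PC3 pair and 6 of 15 within the LNCaP pair. None was past 2-fold higher in either, and 3.76% and 5.13% of all genes were lower. With PC3-L in place of LNCaP-AI 7 of 15 were lower. The lower genes of the LNCaP pair include MARVELD2, already counted among the tight junction genes. ERBB3, DSP, LAD1 and TSPAN1 were lower in both pairs. With a pseudocount of 16 ERBB3 was −0.84 in the PC3 pair and TSPAN1 −0.81 within the LNCaP pair. The anchoring filament protein LAD1 was 52.4 on PC3-L versus 540 on PC3-H (−3.34) and 80.0 on LNCaP-AI versus 232 on LNCaP (−1.53). The keratin KRT19 was 48.8 on PC3-L versus 463 on PC3-H (−3.22) but 45.9 on LNCaP-AI versus 44.2 on LNCaP, so it was dim on every array but PC3-H. The simple-epithelium keratin KRT18 differed less, at 1029 on PC3-L versus 1436 on PC3-H and 786 on LNCaP-AI versus 732 on LNCaP. The 5 measured of 9 perineurial and Schwann cell markers, which include ERBB3 (187.7 on LNCaP), summed to 230.5 to 353 over the arrays. The 2 measured of 9 fibroblast markers summed to 67.3 to 76.1. In RNA of a whole culture, fewer cells with a transcript and less transcript per cell cannot be told apart.

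The genes most like each member were found by the Euclidean distance between log2 levels over the 4 arrays, each gene set to its own mean, among 11508 other genes past the filter on an array. Closest to EPCAM were the arginine synthesis enzyme ASS1 (distance 0.61), the nuclear pore gene NUP210 (0.67), PTGFRN (1.00), SYNGR2 (1.15) and ESRP1 (1.19). Closest to CLDN7 were the translation factor EEF1A2 (0.19), PTGFRN (0.37), C1orf116 (0.50), FZD6 (0.54) and the desmosomal gene DSP (0.59). Closest to ST14 were the mitochondrial gene PPIF (0.22), IFITM2 (0.31), LAD1 (0.37), STK26 (0.49) and VAMP8 (0.55). EEF1A2, for example, was 70.0 on PC3-L versus 534 on PC3-H and 60.6 on LNCaP-AI versus 766 on LNCaP, the same order of arrays as CLDN7 at the high end but not at the low end. CLDN7 was number 6 in likeness to EPCAM (1.20) and ST14 number 10 (1.39). From ST14, EPCAM was number 63 and CLDN7 number 130 (1.62). These distances rest on 4 arrays, which every gene shares, and carry no test.

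**Figure D4:**
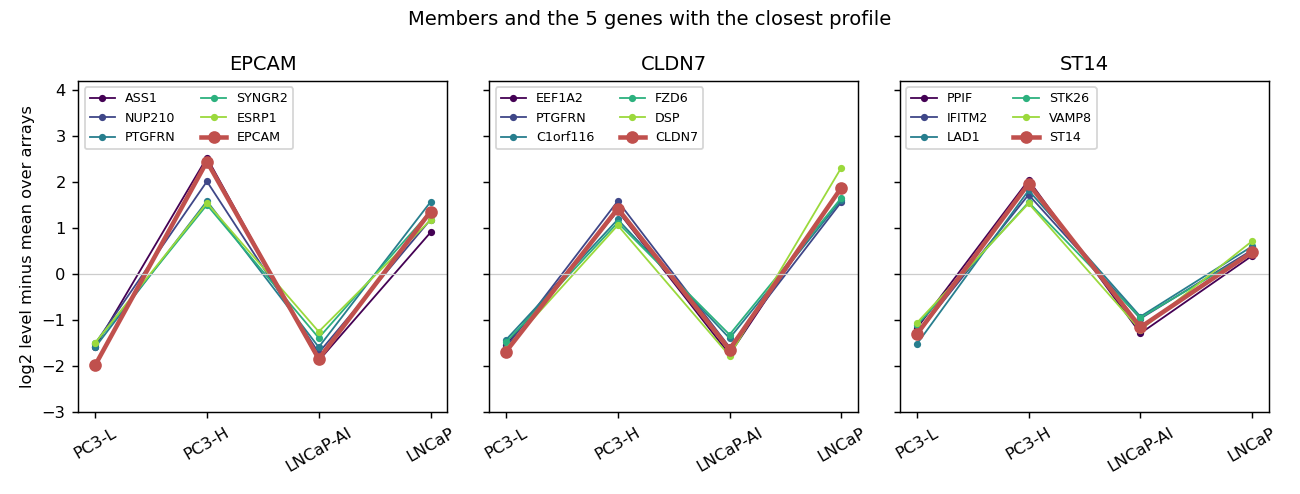
Log2 level minus the gene's mean over the 4 arrays (vertical axis) for each member (thick line) and its 5 closest genes (thin lines), 1 array per culture; lines join arrays only to show the profile. The EPCAM and ST14 groups peak on PC3-H, while CLDN7 is highest on LNCaP.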

How the data were processed

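The members and gene lists were chosen with earlier results of these data known. ISOGEN II extraction and the Affymetrix WT Terminal Labeling Kit were used, per the labels' protocols. The authors deposited intensities on a linear scale, from 17.6 to 11188 by the values, with array medians of 39.8 to 41.2. The authors' background correction, summarising and normalization are not given in the sources used here; the design text names GeneSpring GX 12.6. Of 37934 probes, 14952 carried 1 gene symbol, and the other 22982 did not and were left out of the gene results. Those 14952 matched the RefSeq gene table (GRCh38.p14) by Entrez identifier. The brightest probe stood for a gene. Intensities were taken to log2 after adding 1. Genes counted in a pair reached the 40th percentile of an array on at least 1 of its 2 arrays. A gene can thus pass only through the array where it is high. Each group had 1 array, so pairs have no p-value and array number limits the precision. limma 3.58.1 (R 4.3.3), checked on simulated data, was fitted over all genes past the filter. Named genes were the members, list genes with a named probe and the 5 closest profiles per member. The plan was to name up to 4 genes past 2-fold from each longer list. For the tight junction genes and some other lists more were named. Some named genes, such as SNAI1 and KRT18, were not past 2-fold. Alternatives changed pseudocount, normalization, probe choice, filter, covariate, labels and arrays.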

Additional observations from a re-analysis of the deposited data

Results flagged for a closer look

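BACE2 went past 2-fold in opposite directions in the 2 pairs, with a log2 difference of −1.43 for PC3-L minus PC3-H and 1.25 for LNCaP-AI minus LNCaP. Its intensity was 76.5 on PC3-L versus 208 on PC3-H, and 95.9 on LNCaP-AI versus 39.8 on LNCaP. The difference between the pairs was not tested, since each culture had 1 array.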

How the results depend on the processing

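Over pseudocounts of 0 and 16, median centring, quantile normalization and the mean over probes, the 3 members stayed past 2-fold lower in both pairs, with PC3 differences between −4.47 and −2.72 and LNCaP differences between −3.55 and −1.40. With the opposite assignment of the PC3 pair, EPCAM, CLDN7 and ST14 were by construction 4.43, 3.11 and 3.27 higher there, and the estimate over both lines was 0.61 for EPCAM, 0.82 for ST14 and −0.20 for CLDN7. Leaving out 1 array, with no line covariate, gave 4 estimates between −4.36 and −3.27 for EPCAM, −3.54 and −3.08 for CLDN7 and −3.19 and −1.71 for ST14. The limma adjusted p went past 0.05 for all 3 without PC3-H (0.015 to 0.046) and without LNCaP (0.024 to 0.031); a lone array on the high side is there assumed to vary like the low ones. Genes past 0.05 then ranged from 0 to 280 (71 without LNCaP), and a filter at the 60th percentile gave 1, MMP1. Over the processing alternatives, adjusted p was 0.073 to 0.44 for EPCAM and CLDN7 and 0.16 to 0.47 for ST14. Counts over all genes moved by less than 1.5 times. Without replicates, a difference was counted as moved at a change of 1.5 times; of the results for other genes and lists, 23 moved; 13 differences, all under 2-fold, changed sign, 2 of them (PPL and PARD6B with PC3-L in place of LNCaP-AI) by over 1.5 times, and 14 lost a 2-fold call under an alternative. The line term of the limma fit sets the 4 arrays in 2 pairs. The number of arrays and the dim end of each array limit the folds.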
